A study of Mus musculus with 5 samples.

Results

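The transcripts of the Wnt pathway were examined in mouse neuroepithelial cells (NECs), the epithelium that lines the early neural tube and divides to found the nervous system, by RNA sequencing. The genes were taken by symbol: every Wnt, Fzd, Sfrp, Dkk and Rspo gene with a number, and a list of named processing proteins, receptors, antagonists and effectors. The rule found 68 of the 21801 genes in the table, 1 entry for each symbol. The 5 libraries make up 1 group, NEC replicates 1 to 5, labelled as neural progenitor cells. Per the series text they are purified progenitors, from a study of the mouse neocortex in development. No treatment or mutation is named, and the sources used here give no genotype, strain, age or method of purification. Nothing states that the replicates are separate animals or cultures, so a p-value here covers the spread between these libraries, which may be technical. With 1 group, the comparisons are of each gene against a fixed level, of genes with each other within a library, and of the libraries with each other.

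Wnt proteins are lipid-modified secreted signals. In the canonical branch a Wnt binds a Frizzled receptor together with Lrp5 or Lrp6, Dishevelled is recruited, the destruction complex of Axin, Apc, Gsk3 and casein kinase 1 stops marking beta-catenin for breakdown, and beta-catenin enters the nucleus to act with Tcf and Lef factors. In the forebrain, Wnts from the dorsal midline pattern the cortex and sustain progenitor division, and secreted antagonists hold the pathway low at the anterior end.

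The unit, FPKM, counts the fragments for each kilobase of a transcript and each 1000000 reads mapped. Levels of different genes can thus be set against each other per length. The unit by itself makes no correction for how well each transcript was primed or amplified, so comparisons between genes hold within that limit. Low values come in steps that implied 20600000 to 28400000 reads behind a library, and 1 read in a transcript of 2000 bases was then worth 0.0196 to 0.0269 FPKM. Pairs of libraries had Pearson's r between 0.990 and 0.997 on log2(FPKM + 1) across genes, which are not independent replicates, and none of the 10 pairs held identical values. Of 12 neural progenitor markers 11 lay above 1 FPKM and none below, among them Pax6 and Sox2. This shows those transcripts to be present and does not single out the cell type, since 52.3% of all genes tested and markers of other cells passed that level too. Among 12 mesenchyme markers 9 were called above that level and 1 below it, and all 8 surface ectoderm markers lay above. The mesenchyme list summed to 48.9, 85.1, 179, 145 and 148 FPKM in replicates 1 to 5, so replicate 1 was lowest and replicate 3 highest. In such bulk samples fewer cells of a type and less RNA per cell cannot be told apart.

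Every step of the receiving side had genes above 1 FPKM, though not all of its genes, whereas most of the ligand genes were below it. Each gene was tested against 1 FPKM with limma on log2(FPKM + 1), two-sided, and called at a Benjamini-Hochberg adjusted p under 0.05 over all 19706 genes above 0 in at least 1 library. Log2 differences between genes or libraries given below are on the log2(FPKM + 1) scale too, whereas ratios of summed FPKM are plain log2 ratios. Of the 68 members, 67 entered the test. In it 37 (55.2%) lay above 1 FPKM, beside 52.3% of all genes tested, and 23 (34.3%) lay below, beside 41.4% of all genes tested, so the shares for the pathway as a whole were close to the background. Another 7 were called neither way, and Wnt10a was listed at 0 in all 5 libraries. Genes that almost every cell uses, such as Actb, are listed at 0 too, so a 0 can be a failed estimate. The median level of the 68 members was 1.83 FPKM and that of all genes tested 1.79 FPKM. By role the counts differed. All 6 destruction complex genes, all 5 nuclear effectors and both processing genes lay above the level, against 3 of the 18 Wnt ligands tested.

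**Figure D1:**
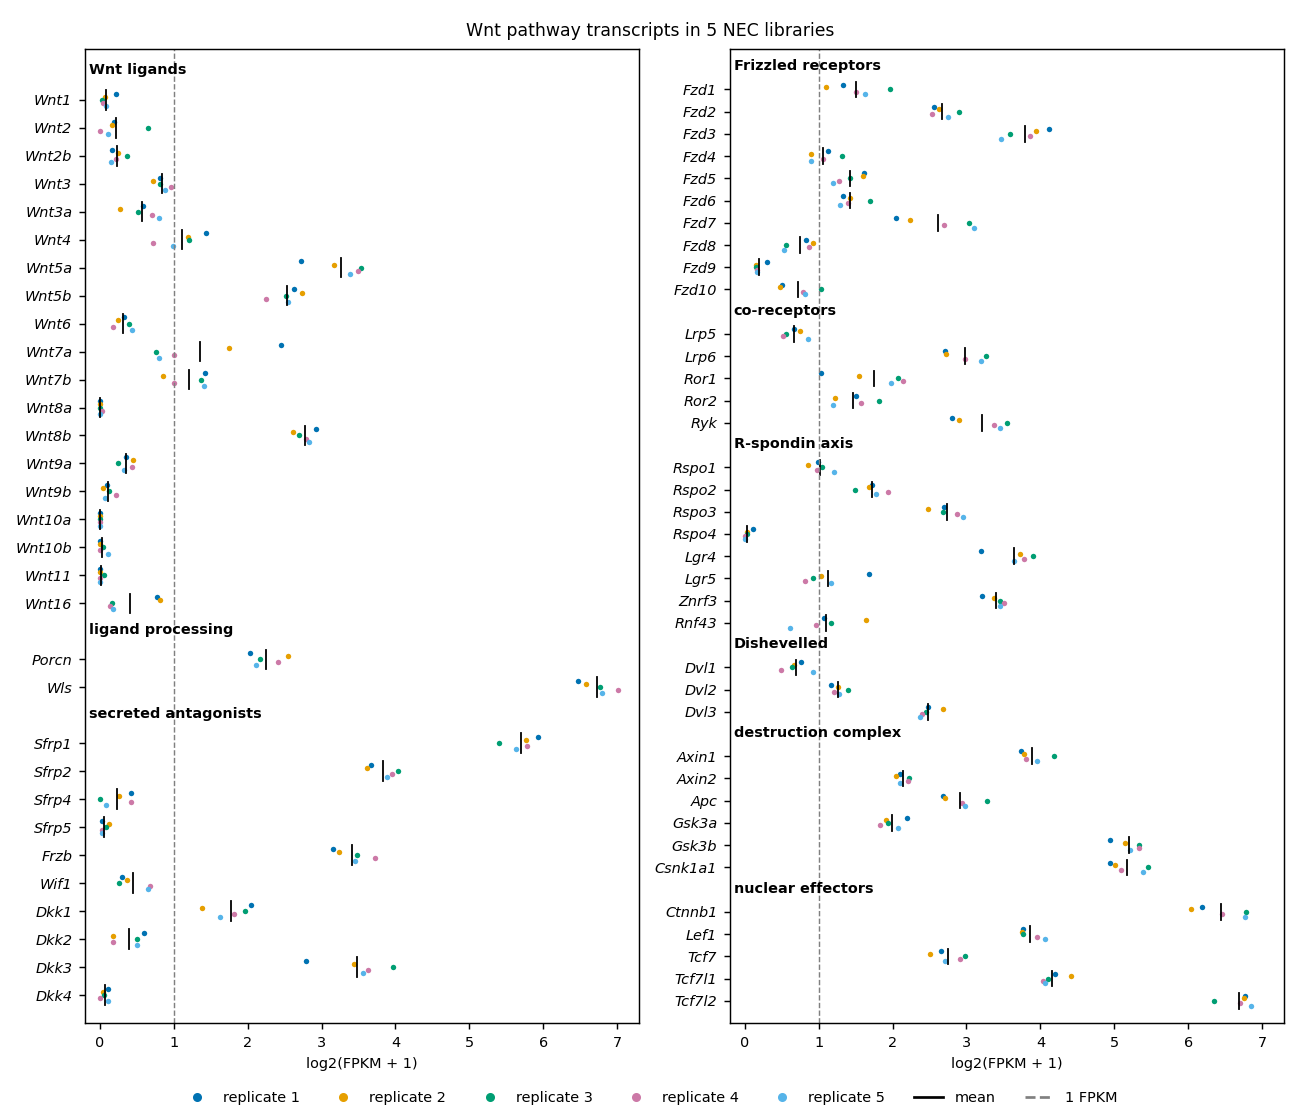
Level of each of the 68 genes on the log2(FPKM + 1) axis, by role, with 1 point for each of the 5 NEC libraries, a black bar for the mean and a dashed line at 1 FPKM. Most ligands sit left of the line, and Wls, Tcf7l2, Ctnnb1 and Sfrp1 sit farthest right.

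The Wnt ligands carried a summed level of 26.6 ± 1.19 FPKM (SD, n = 5), and 3 genes held most of it. Wnt5a, a ligand best known for beta-catenin-independent signalling in convergent extension (chromosome 14, 28504750 to 28527448 on mm10, plus strand), stood at 5.60, 7.97, 10.6, 10.3 and 9.40 FPKM in replicates 1 to 5. Wnt8b, a ligand of the caudomedial forebrain and cortical hem (chromosome 19, 44493472 to 44514273, plus strand), stood at 6.58, 5.15, 5.48, 5.94 and 6.13 FPKM. Wnt5b, the close relative of Wnt5a, stood at 5.16, 5.66, 4.72, 3.74 and 4.84 FPKM. Every library lay above 1 FPKM for each of these, the differences from that level being 2.26 for Wnt5a (SE 0.12, limma adjusted p = 5.8e-07), 1.77 for Wnt8b (SE 0.07, adjusted p = 8.8e-08) and 1.53 for Wnt5b (SE 0.09, adjusted p = 8.6e-07) on the log2 scale. Together they made up 61.4%, 72.8%, 76.3%, 79.4% and 77.0% of the summed ligand FPKM in replicates 1 to 5. Wnt8b kept the steadiest share of the 3, between 19.9% and 23.5%, while the share of Wnt5a ran from 19.8% in replicate 1 to 41.0% in replicate 4. Replicate 1 was also the library lowest for the mesenchyme markers, whose part in the share of Wnt5a was not tested. Wnt5a lay above Wnt5b in every library (log2 difference 0.73 ± 0.46).

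Wnt4, Wnt7a and Wnt7b were called neither way. Wnt7a, a ligand of ventricular zone progenitors and of brain vessel growth, stood at 4.49, 2.35, 0.701, 1.01 and 0.742 FPKM in replicates 1 to 5, so replicates 1 and 2 were high and the others near or below 1 FPKM. Its SD of 0.73 on the log2 scale was the largest of the 44 members that averaged 1 FPKM or more. Wnt7b stood at 1.68, 0.809, 1.59, 1.00 and 1.65 FPKM (adjusted p = 0.0973). It was called above the level when each library was rescaled to a sum of 1000000 FPKM (log2 difference 0.41) and without replicate 2 (0.30). Wnt4 stood at 1.72, 1.29, 1.31, 0.653 and 0.985 FPKM, with libraries on both sides of the level. Wnt7b minus Wnt7a changed sign between libraries, from -1.03 in replicate 1 to 0.61 in replicates 3 and 5.

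The other ligands tested, 12 in number, lay below 1 FPKM. Wnt3 (0.791 ± 0.109 FPKM) and Wnt3a (0.503 ± 0.204), dorsal midline and primitive streak signals, and Wnt16 (0.365 ± 0.337) had the highest means among them. The call of Wnt3 was lost under the rescaling (log2 difference -0.01) and with replicate 1, 2, 3 or 5 left out (-0.13 to -0.19 over all 5 omissions). For Wnt9a, Wnt6, Wnt2, Wnt2b, Wnt9b and Wnt1, the last a midbrain and roof plate signal, no library passed 0.566 FPKM. Wnt10b had 0.0348 FPKM in replicate 3 and 0.0854 in replicate 5, Wnt11 had 0.0406 in replicate 3, and each was listed at 0 in the other libraries. Wnt8a, the paralog of Wnt8b, had 0.0228 FPKM in replicate 4 and was listed at 0 elsewhere. Such values are worth a few reads at this depth. In the mouse genome 8 of the Wnt genes stand in 4 neighbouring pairs within 100000 bases of each other, Wnt1 with Wnt10b on chromosome 15, Wnt3 with Wnt9b and Wnt3a with Wnt9a on chromosome 11, and Wnt6 with Wnt10a on chromosome 1. Of these 8 genes 7 were called below 1 FPKM and Wnt10a was listed at 0, where 12 of the 18 ligands tested were below in all, so the count is no result about paired genes.

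Wnt4, Wnt5a, Wnt5b and Wnt11, which are known mainly for beta-catenin-independent signalling, summed to 12.5, 14.9, 16.6, 14.7 and 15.2 FPKM in replicates 1 to 5, against 15.8, 10.9, 10.6, 10.5 and 11.2 FPKM for the other 15 ligands. The order thus differed between libraries, with the log2 ratio at -0.34 in replicate 1 and between 0.44 and 0.65 in the others (mean 0.34 ± 0.39; the exact permutation test that flips signs over 5 libraries, two-sided, gave p = 0.125, also after adjustment over 5 pool contrasts). Without replicate 1 the mean was 0.51. Without Wnt5a and Wnt8b, the highest gene on each side, it was 0.05.

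Promoter windows of 4 genes are printed because they span the range of CpG content among the ligands and show Axin2, a feedback gene of the pathway. They come from RefSeq on GRCm38.p6, the assembly of mm10, run from 250 bases before to 50 bases after the start of the gene (the most upstream start listed), and are written 5′ to 3′ on the gene's strand with each CpG dinucleotide in capitals. Wnt8b is at chr19:44493222-44493521 (plus strand), Wnt5b at chr6:119544298-119544597 (minus strand), Wnt9a at chr11:59306680-59306979 (plus strand) and Axin2 at chr11:108920099-108920398 (plus strand).
Wnt8b: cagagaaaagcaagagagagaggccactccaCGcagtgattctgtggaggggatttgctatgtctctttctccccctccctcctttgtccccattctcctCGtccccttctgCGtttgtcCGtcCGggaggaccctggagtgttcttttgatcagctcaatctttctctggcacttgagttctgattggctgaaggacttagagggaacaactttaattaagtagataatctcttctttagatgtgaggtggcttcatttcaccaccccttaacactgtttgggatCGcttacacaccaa
Wnt5b: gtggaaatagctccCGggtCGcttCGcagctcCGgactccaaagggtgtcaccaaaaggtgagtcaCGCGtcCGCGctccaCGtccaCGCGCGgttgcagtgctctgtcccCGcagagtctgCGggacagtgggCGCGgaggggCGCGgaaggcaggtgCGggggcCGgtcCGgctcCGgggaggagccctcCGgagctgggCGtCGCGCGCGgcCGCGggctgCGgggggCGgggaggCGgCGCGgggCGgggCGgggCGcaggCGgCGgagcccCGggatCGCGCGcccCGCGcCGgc
Wnt9a: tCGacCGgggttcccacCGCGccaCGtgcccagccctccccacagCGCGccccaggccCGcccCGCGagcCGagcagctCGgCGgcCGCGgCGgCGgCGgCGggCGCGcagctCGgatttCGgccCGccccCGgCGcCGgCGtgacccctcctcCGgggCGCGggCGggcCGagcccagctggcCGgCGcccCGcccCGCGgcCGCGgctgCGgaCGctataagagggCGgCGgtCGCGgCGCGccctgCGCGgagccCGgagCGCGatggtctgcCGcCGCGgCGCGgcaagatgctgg
Axin2: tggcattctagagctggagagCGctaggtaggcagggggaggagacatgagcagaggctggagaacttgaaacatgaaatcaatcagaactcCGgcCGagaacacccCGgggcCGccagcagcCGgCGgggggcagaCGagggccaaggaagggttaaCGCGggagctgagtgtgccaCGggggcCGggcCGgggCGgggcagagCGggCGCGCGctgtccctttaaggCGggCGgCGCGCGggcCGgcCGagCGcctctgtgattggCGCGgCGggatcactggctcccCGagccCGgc

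The Wnt8b window held 6 CpG dinucleotides, a count at or below which 47.7% of 27025 RefSeq promoters fall. The window of Wnt9a, a gene at 0.287 ± 0.0741 FPKM, held 58, a count reached by 0.115% of those promoters. Wnt5b, above 1 FPKM, held 47, so windows poor and rich in CpG both occur among ligands above the level. Over the 46 members matched in the table the median was 29.0 CpG, against 7 over all promoters. Those 27025 promoters, 1 per symbol, outnumber the 21801 genes measured. The sets are thus not alike, and the difference is no result about the pathway. The median was 22.0 for the 23 matched members above 1 FPKM (6 to 47) and 30.0 for the 18 below it (10 to 58), with ranges that overlap. The core Tcf and Lef motif was searched as CTTTGAA and CTTTGAT on both strands, which cannot overlap each other on the same strand, and 3 of the 46 windows (6.52%) held either, beside 8.79% of all promoters. These were the windows of Dkk1, Gsk3a and Wnt11. The Axin2 window held neither, which says only that these letters are not in this window.

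**Figure D2:**
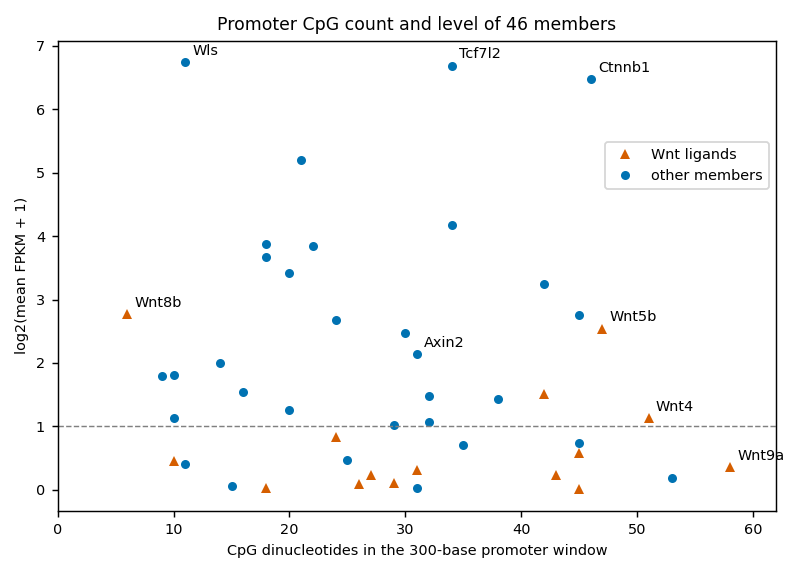
Number of CpG dinucleotides in the 300-base promoter window (horizontal) and log2(mean FPKM + 1) over 5 NEC libraries (vertical) for the 46 members with a RefSeq promoter, Wnt ligands as triangles and other members as circles, with a dashed line at 1 FPKM. Wnt8b, with 6 CpG, and Wnt5b, with 47, both sit above the line, and Wnt9a, with 58, sits below it.

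Both genes that ready Wnt proteins for secretion lay above 1 FPKM. Wls, the carrier that brings lipid-modified Wnts to the cell surface, stood at 87.7, 94.8, 108, 128 and 110 FPKM in replicates 1 to 5, the highest mean of the 68 genes at 106 ± 15.5 (SD, n = 5). Porcn, the acyltransferase that attaches the lipid, stood at 3.09, 4.84, 3.49, 4.34 and 3.31 FPKM. The lowest library of Wls was thus above the highest library of every ligand.

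Secreted antagonists reached higher levels than the ligands. Of 10 genes 5 lay above 1 FPKM and 5 below. Sfrp1, a decoy that binds Wnts with a Frizzled-like domain, stood at 59.6, 53.6, 41.2, 53.9 and 48.5 FPKM in replicates 1 to 5 and made up 48.4% to 66.7% of the summed antagonist FPKM. Sfrp2, its close relative, stood at 11.7, 11.2, 15.4, 14.5 and 13.8 FPKM. Sfrp1 was lowest and Sfrp2 highest in replicate 3. Sfrp2 lay below Sfrp1 in 5 of 5 libraries, with a difference of -1.87 ± 0.36 on the log2(FPKM + 1) scale. Frzb, a further decoy of that family, averaged 9.74 ± 1.70 FPKM, and Dkk1, which blocks Lrp5 and Lrp6, 2.46 ± 0.619. Dkk3, a divergent member of the Dickkopf family that is not known for blocking Lrp6, averaged 10.5 ± 3.15 FPKM, being lowest in replicate 1 at 5.92 and highest in replicate 3 at 14.7. Sfrp4, Sfrp5, Wif1, Dkk2 and Dkk4 lay below the level, and no library of them passed 0.604 FPKM. The antagonists, with Dkk3 counted, summed to 89.4, 85.3, 85.1, 95.6 and 86.4 FPKM in replicates 1 to 5. The ligands summed to 28.2, 25.8, 27.2, 25.2 and 26.5 FPKM. The pools did not overlap, and the ratio was 1.73 ± 0.11 on the log2 scale, or 3.32-fold (antagonists higher in 5 of 5 libraries, p = 0.062 by the same exact test, adjusted 0.0781). With 5 libraries 0.062 is the smallest p this test can give, so no contrast could pass 0.05. Without Sfrp1 and Wnt5a, the highest gene of each pool, the log2 ratio was 1.05.

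**Figure D3:**
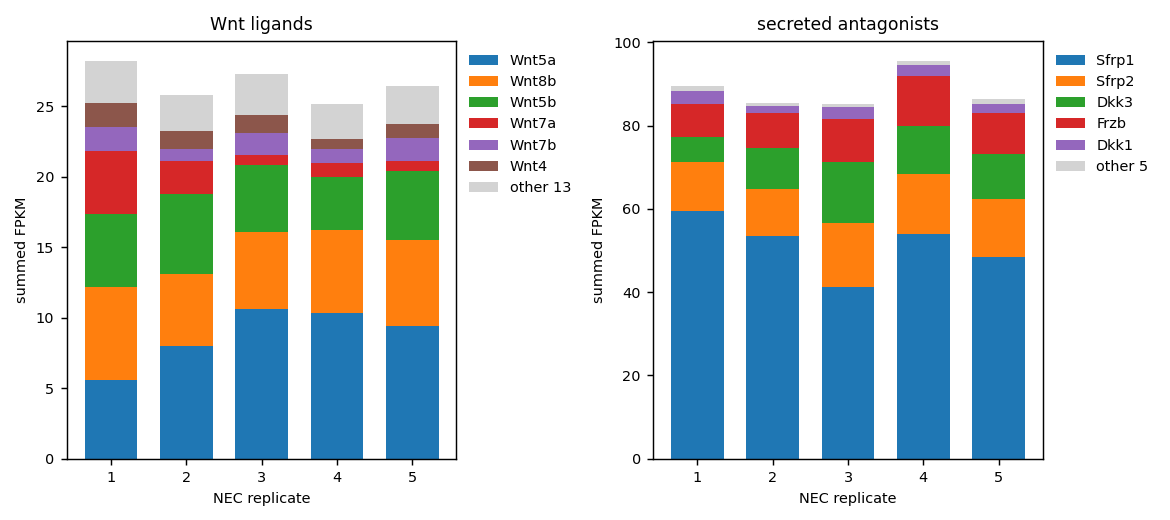
Stacked FPKM of the Wnt ligands (left) and of the secreted antagonists (right) in each NEC replicate, each axis starting at 0, with the lowest genes of each group summed in grey. The ligand stack ends between 25.2 and 28.2 FPKM and the antagonist stack between 85.1 and 95.6 FPKM, and the Wnt7a segment is tallest in replicate 1.

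Among the 10 Frizzled receptors 6 were called above 1 FPKM and 3 below it, and 1 was called neither way. Of all genes tested 52.3% were above and 41.4% below. Fzd3, known for axon tract formation and planar polarity, stood at 16.4, 14.3, 11.05, 13.5 and 10.1 FPKM in replicates 1 to 5 and made up 31.9% to 51.0% of the Frizzled sum. Fzd2 stood at 4.89, 5.17, 6.49, 4.80 and 5.70 FPKM. Fzd7, of the same subfamily as Fzd1 and Fzd2, stood at 3.13, 3.70, 7.16, 5.48 and 7.56 FPKM. Fzd2 and Fzd7 had the same mean of 5.41 FPKM, and their order changed between libraries, with Fzd2 higher in replicates 1 and 2 (exact permutation test, p = 0.812, adjusted 0.812 over 21 pairs). Fzd5, a receptor of eye field and anterior brain, stood at 2.07, 2.02, 1.69, 1.41 and 1.28 FPKM, and its nearest relative Fzd8 at 0.779, 0.898, 0.478, 0.829 and 0.440 FPKM, so that Fzd5 was the higher in every library (log2 difference 0.68 ± 0.18). Fzd1 (1.90 ± 0.665) and Fzd6 (1.70 ± 0.308) completed the receptors above the level. Fzd4 was at 1.19, 0.855, 1.49, 1.08 and 0.856 FPKM, on both sides of the level. Fzd8, Fzd10 (0.671 ± 0.268) and Fzd9 (0.139 ± 0.0508) lay below it. The rescaling ended the call of Fzd8 and of Fzd10 (log2 differences -0.12 and -0.14), as did leaving out replicate 5 for Fzd8 (-0.20) and replicate 1 or 2 for Fzd10 (-0.22 and -0.21).

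Lrp6 was the canonical co-receptor with the higher level. It stood at 5.56, 5.60, 8.61, 6.90 and 8.18 FPKM in replicates 1 to 5, against 0.586, 0.677, 0.474, 0.433 and 0.816 FPKM for Lrp5, which lay below 1 FPKM. The values did not overlap, and Lrp6 minus Lrp5 was 2.31 ± 0.30 on the log2(FPKM + 1) scale. The ratio of mean FPKM was 11.7-fold, which that scale shrinks because Lrp5 was low. Ryk, a Wnt receptor with an inactive kinase domain, stood at 5.99, 6.43, 10.7, 9.33 and 10.002 FPKM, the highest mean of the 5 co-receptors. The receptor tyrosine kinases Ror1 (2.50 ± 0.992) and Ror2 (1.795 ± 0.510), which bind Wnt5a, were above the level, and Ror2 exceeded Ror1 in 1 of 5 libraries (difference -0.29 ± 0.47, exact permutation test, p = 0.250, adjusted 0.276). Without replicate 1, the library in which Ror2 was higher, the mean difference was -0.48, and without replicate 5 it was -0.17. Summed over all 10 genes, the Frizzled receptors stood at 31.8 ± 1.78 FPKM, against 7.57 ± 1.42 for Lrp5 and Lrp6. The log2 ratio of the sums was 2.09 ± 0.25, with the Frizzled pool higher in 5 of 5 libraries. Because 10 genes were summed against only Lrp5 and Lrp6, the ratio also follows the number of genes and does not compare levels per gene. It became 4.99 without Fzd3 and Lrp6, since Lrp5 alone was left on the co-receptor side.

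R-spondins are secreted proteins that join Lgr receptors and clear the ubiquitin ligases Znrf3 and Rnf43, which take Frizzled receptors off the surface. Lgr4 stood at 8.13, 12.2, 13.9, 12.7 and 11.5 FPKM in replicates 1 to 5, against 2.21, 1.04, 0.898, 0.754 and 1.24 FPKM for Lgr5, a marker of intestinal stem cells. The pair moved apart most in replicates 3 and 4, and Lgr5 minus Lgr4 was -2.53 ± 0.60 on the log2(FPKM + 1) scale. Znrf3 stood at 8.26, 9.40, 9.91, 10.4 and 10.02 FPKM, against 1.11, 2.13, 1.25, 0.943 and 0.535 FPKM for Rnf43, with Rnf43 lower in 5 of 5 libraries by a difference of -2.31 ± 0.42. Rspo3 (5.71 ± 0.859) and Rspo2 (2.32 ± 0.374) lay above 1 FPKM and Rspo4 below it, with 0.0806, 0.0176 and 0.0223 FPKM in replicates 1 to 3 and listed at 0 in the other two. Rspo1, at 0.991, 0.818, 1.07, 0.971 and 1.30 FPKM, was called neither way, as were Lgr5 and Rnf43. Znrf3 and Rnf43 together exceeded the 4 R-spondins in 5 of 5 libraries, by a log2 ratio of 0.26 ± 0.25. Without Znrf3 and Rspo3, the higher gene on each side, the ratio turned to -1.63.

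Of the Dishevelled genes, which relay the receptor signal, Dvl3 stood at 4.59, 5.40, 4.47, 4.27 and 4.18 FPKM in replicates 1 to 5 and Dvl2 at 1.24, 1.39, 1.63, 1.30 and 1.41 FPKM, and Dvl1 lay below 1 FPKM at 0.628 ± 0.184. The order Dvl3, Dvl2, Dvl1 held in 5 of 5 libraries. On the log2(FPKM + 1) scale Dvl3 minus Dvl2 was 1.22 ± 0.15 and Dvl2 minus Dvl1 was 0.56 ± 0.18. Their ratios of mean FPKM were 3.29 and 2.22. The call of Dvl1 was lost under the rescaling (log2 difference -0.17). Exons of Dvl2 overlap those of Acadvl, a gene on the other strand at 30.8 ± 3.37 FPKM, and those of Dvl1 overlap Tas1r3 at 0.0645 ± 0.0402. Exons of 14 of the 68 members overlap those of another annotated gene, protein coding in 3 cases, and the labels do not say that strand was kept, so reads of such partners cannot be told apart.

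All 6 genes of the destruction complex lay above 1 FPKM. The kinase Gsk3b stood at 29.7, 34.5, 39.2, 39.3 and 36.1 FPKM in replicates 1 to 5, and the priming kinase Csnk1a1 at 29.6, 31.1, 42.8, 33.2 and 40.8 FPKM. Gsk3a, the other form of glycogen synthase kinase 3, averaged 2.99 ± 0.409 FPKM, and Gsk3b exceeded it in every library (log2 difference 3.20 ± 0.29). The scaffold Axin1 averaged 13.9 ± 2.01 FPKM and the scaffold Apc 6.62 ± 1.33. Axin2, a scaffold that is itself a widely used target gene of beta-catenin (chromosome 11, 108920349 to 108950783 on mm10, plus strand, with the promoter printed above), stood at 3.29, 3.14, 3.67, 3.64 and 3.28 FPKM. Its SD of 0.08 on the log2 scale was the smallest of the 44 members that averaged 1 FPKM or more, beside a median SD of 0.20 for those members and 0.16 for all 10983 genes at that level. Axin2 lay below Axin1 in 5 of 5 libraries, with a difference of -1.75 ± 0.15.

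The nuclear effectors all lay above 1 FPKM. Tcf7l2, a Tcf factor that can activate or repress (chromosome 19), stood at 108, 107, 80.2, 103 and 114 FPKM in replicates 1 to 5, and Ctnnb1, which encodes beta-catenin, at 71.5, 64.6, 109, 86.6 and 108 FPKM. Replicate 3 was lowest for Tcf7l2 and highest for Ctnnb1. Exons of Ctnnb1 overlap those of Ulk4, a gene on the other strand at 14.8 ± 2.36 FPKM, and beta-catenin also serves in cell junctions. Tcf7l1, mainly a repressor, stood at 17.3, 20.4, 16.2, 15.4 and 15.7 FPKM, and Lef1, mainly an activator and in many tissues a target of the pathway, at 12.6, 12.4, 12.6, 14.5 and 15.7 FPKM. Tcf7, the remaining factor of the family, averaged 5.79 ± 0.915 FPKM. Tcf7l1 minus Tcf7l2 was -2.52 ± 0.23 and Lef1 minus Tcf7 was 1.10 ± 0.21 on the log2(FPKM + 1) scale. Each had the same sign in 5 of 5 libraries. Summed, Tcf7l1 and Tcf7l2 reached 119 ± 13.6 FPKM, against 19.3 ± 1.84 for Lef1 and Tcf7, a log2 ratio of 2.62 ± 0.24. Without Tcf7l2 and Lef1, the higher gene on each side, it was 1.56.

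In most of the pairs compared, alternative genes for 1 step of the pathway kept 1 order in all libraries. Over 21 pairs of members, 18 had the same sign in all 5 libraries, where the exact permutation test gives p = 0.062 (adjusted 0.0729), and 3 did not: Ror2 with Ror1, Wnt7b with Wnt7a (p = 0.688, adjusted 0.722) and Fzd2 with Fzd7. No such share was computed for pairs of other genes, so the count of 18 is no result about the pathway. On the log2(FPKM + 1) scale the mean differences of the 18 had sizes from 0.26 for Wnt3a minus Wnt3 (-0.26 ± 0.13) up to 3.20 for Gsk3b minus Gsk3a, but this scale shrinks pairs with a member near 0, such as Wnt8b with Wnt8a, so it gives no ranking of them by fold.

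**Figure D4:**
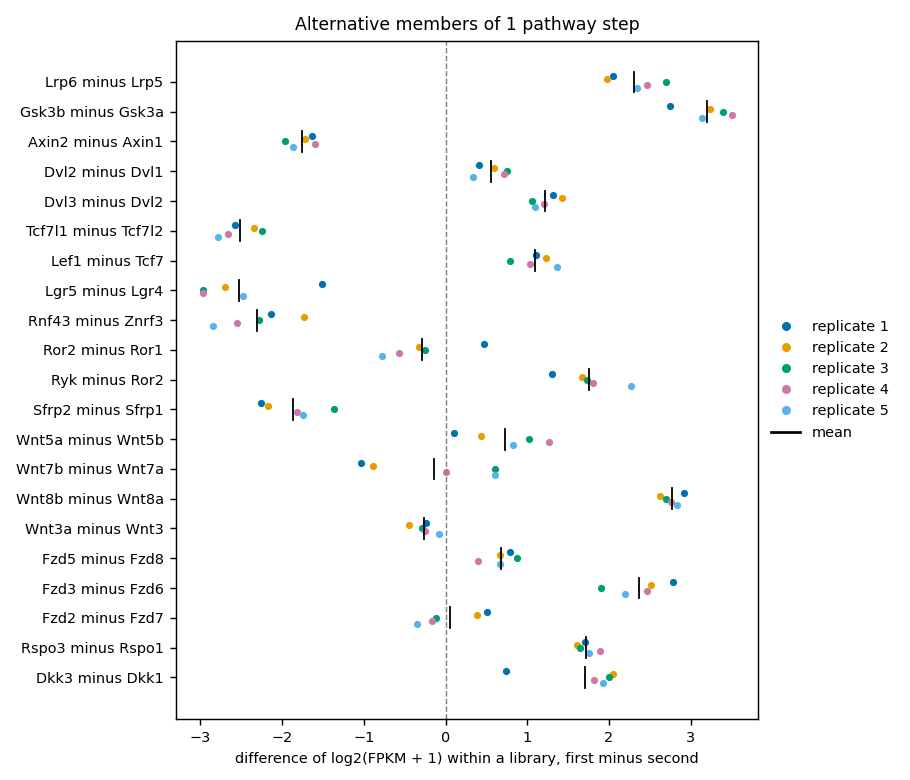
Difference of log2(FPKM + 1) between the members of each of 21 pairs within a library, as the gene named at the left minus its partner, with 1 point per NEC replicate, a black bar for the mean and a dashed line at 0. Gsk3b minus Gsk3a averages 3.20, and the points of Ror2 minus Ror1, Wnt7b minus Wnt7a and Fzd2 minus Fzd7 fall on both sides of the line.

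Of 56 further genes of the pathway 39 were called above 1 FPKM, 14 below it and 3 neither way, beside 52.3% above and 41.4% below of all genes tested. The median level was 3.45 FPKM, and that of all genes tested 1.79 FPKM. Csnk2b, a subunit of casein kinase 2, was highest at 577 ± 42.0 FPKM, followed by the Axin-degrading tankyrase Tnks2 (129 ± 12.6) and by Mesdc2, a chaperone for Lrp5 and Lrp6 (105 ± 9.77). Casein kinase 2 and Tnks2 serve many other processes. Kremen1, a Dickkopf receptor (0.866 ± 0.154), Dact3 (1.01 ± 0.504) and Reck (1.40 ± 0.555) were called neither way. Among the 14 below were the Lrp inhibitor Sost (at most 0.0703), the Wnt deacylase Notum (0.0593 ± 0.0343) and the R-spondin receptor Lgr6 (at most 0.0334, and listed at 0 in replicates 3 to 5). Sostdc1, a close relative of Sost, stood at 24.5 ± 3.60 FPKM. These 4 genes were picked after their values had been seen.

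Of 16 genes outside the members that are known as Wnt targets in some tissue, 7 lay above 1 FPKM and 9 below. These counts stand beside 52.3% and 41.4% of all genes tested, so they say little about the list. Targets among the members, such as Axin2 (3.40 ± 0.233 FPKM) and Lef1 (13.6 ± 1.45), both above the level, were not on it. Nkd1, Notum and Apcdd1 also stand among the further genes of the pathway given above. The median level of the 16 genes was 0.609 FPKM and that of all genes tested 1.79 FPKM. Id2 (177 ± 16.7), the growth regulator Myc (58.1 ± 6.10) and the forebrain factor Sp8 (29.6 ± 4.63) had the highest levels, and all 3 also answer to other signals. Ccnd1 (18.5 ± 1.99), Msx1 (3.56 ± 1.22), Lmx1a (3.46 ± 0.247) and Apcdd1, a membrane inhibitor of the pathway (2.54 ± 0.839), made up the rest above the level. The feedback inhibitor Nkd1 lay below it at 0.639, 0.635, 0.745, 0.758 and 0.953 FPKM in replicates 1 to 5, and Sp5, a direct target in many tissues, at 0.0921, 0.121, 0.102, 0.371 and 0.296 FPKM. Sp5 was thus higher in replicates 4 and 5 than in the others. T and Cdx2, targets in the posterior embryo, did not pass 0.0263 and 0.0171 FPKM in any library and were listed at 0 in most.

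Some members were highest in replicate 3 and lowest in replicate 1, as was the sum of the mesenchyme markers, and this likeness was not tested. These libraries also stood apart over all genes. Replicate 1 had the lowest summed FPKM, 747034, and the most genes above 0, 18456. Replicate 3 had the fewest implied reads, 20600000, and the fewest genes above 0, 16275. The part of these differences in the pattern was not tested either. Of the 44 members that averaged 1 FPKM or more, 18 (40.9%) were highest in replicate 3, beside 21.9% of all 10983 genes at that level, and 16 (36.4%) were lowest in replicate 1, beside 35.0%. Both held for 9 members (20.5%, beside 8.32% of all genes): Wnt5a, Dkk3, Lrp6, Ryk, Lgr4, Dvl2, Axin1, Apc and Csnk1a1. The opposite, highest in replicate 1 and lowest in replicate 3, held for Wnt7a and Sfrp1 (4.55%, beside 4.82%). Relative to its own mean, Dkk3 stood at -0.69 in replicate 1 and 0.49 in replicate 3 on the log2 scale, Ror1 at -0.72 and 0.32, and Wnt5a at -0.54 and 0.27, whereas Wnt7a stood at 1.10 and -0.59. Axin2 stayed between -0.09 and 0.08 in all 5 libraries.

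Marker lists also differed between libraries. The median deviation of the mesenchyme list was -0.83 in replicate 1 and 0.47 in replicate 3, and that of the neural crest list was -0.63 and 0.50, with 3 of its 6 genes above 1 FPKM, 2 below, and Foxd3 listed at 0 in all libraries but replicate 5. The neural progenitor list had 0.20 in replicate 1 and -0.22 in replicate 3, and summed to 346, 337, 285, 322 and 314 FPKM in replicates 1 to 5. The neuron list, with 6 of 14 genes above and 8 below, had 0.27 and -0.32. The surface ectoderm list ran otherwise, highest in replicate 2 (0.35) and lowest in replicate 1 (-0.26). The endothelium list, with 2 of 8 genes above, 3 below and 3 neither way, had -0.48, -0.32, 0.24, 0.61 and 0.48 in replicates 1 to 5, and summed to between 6.37 and 16.2 FPKM. It was thus lowest in replicate 1 and highest in replicate 4, as were Wls, Frzb, Ror1, Znrf3 and Gsk3b among the 44 members. Among all 10983 genes at that level, 35.0% were lowest in replicate 1 and 27.0% were highest in replicate 4. The share of all genes with both was not counted, so naming these genes is no result about the members. The part of mesenchyme, endothelium or other cells in the levels of these members and of Wnt5a, Dkk3 and Fzd7 was not tested. With replicate 1 left out 37 members lay above 1 FPKM and 21 below, and with replicate 3 left out the counts were the same.

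**Figure D5:**
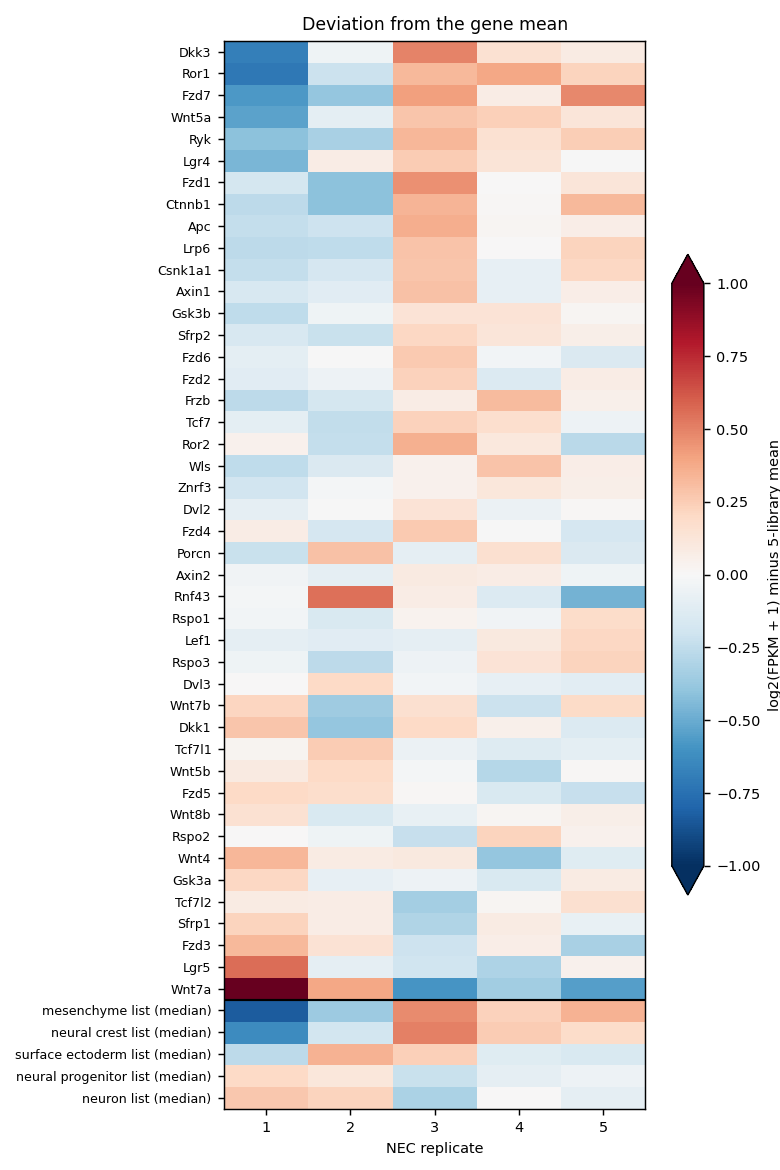
Difference of each gene's log2(FPKM + 1) from its 5-library mean for the 44 members that averaged 1 FPKM or more, sorted by replicate 3 minus replicate 1, and below the black line the median of the same for 5 marker lists, with 1 column per NEC replicate, red for higher and blue for lower (colours end at -1 and 1). Dkk3, Ror1, Fzd7 and Wnt5a head the map, low in replicate 1 like the mesenchyme and neural crest lists, and Wnt7a ends it, high in replicate 1.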

How the data were processed

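Total RNA of 5 NEC libraries was measured. Per the labels' protocols, poly-dT-primed cDNA made with template switching was amplified for 12 cycles, sheared, and given 15 further library cycles, and single-end reads of 75 bases were taken, about 35 (in units of 1000000) per sample. Without molecular identifiers, PCR copies count as reads. The authors deposited FPKM per gene and library, and the tools in the submitters' processing notes are TopHat2 2.0.11, Cuffdiff 2.2.1, cutadapt and CASAVA 1.8, with mm10 as the build. The sources used here give no further settings. FPKM are not counts, and a value of 0 can be a failed estimate, so it is given as listed at 0.

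Values were put on the log2(FPKM + 1) scale, which understates differences of low genes. An intercept was fitted with limma 3.58.1 (R 4.3.3) and a variance trend, and was tested two-sided against 1 FPKM over the 19706 genes above 0 in any library. Tested on simulated data of that size, 5.15% of 2000 genes set at the level were called. Of 50 genes at each shift, 84% were called at -0.4 and 86% at 0.4. Noise was drawn independently for each gene and library, so shifts that genes share within a library were not simulated. Pairs and pools were compared by an exact permutation test over the 32 patterns of signs. Depth was read from genes under 0.15 FPKM with 1 transcript over 800 bases in GENCODE M21, less 200 bases each, where values cluster at 1 read. Coordinates are GENCODE M21 on mm10, in which all 68 members were matched by ID.

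Members and lists were chosen with earlier results of these data known. The rule for named genes was every member above 1 FPKM, per-library values for the 2 highest members of each role, a set of core genes and the members called neither way, and the 3 highest of each further list with those called neither way. Other genes are named for context, picked with values in view. Alternatives covered pseudocounts, rescaling, other levels, filters, variance settings, pools without their highest gene, and each library left out.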

Additional observations from a re-analysis of the deposited data

Results flagged for a closer look

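In 93 sets of 5 values (67 members, 5 pool contrasts and 21 pairs) 9 had 1 library farther from the rest than the 95% critical value of Dixon's test allows, and chance flags about 1 set in 20. Among members at low levels, Wnt1 was highest in replicate 1 at 0.161 FPKM, Fzd9 in replicate 1 at 0.230, Rspo4 in replicate 1 at 0.0806, Wnt8a in replicate 4 at 0.0228 and Wnt11 in replicate 3 at 0.0406, and the last 2 were listed at 0 in the other libraries. Values of this size rest on few reads. Tcf7l2 was lowest in replicate 3 at 80.2 FPKM, with the other libraries between 103 and 114. The log2 ratio of secreted antagonists to Wnt ligands was highest in replicate 4 at 1.92. That of Wnt4, Wnt5a, Wnt5b and Wnt11 to the other ligands was lowest in replicate 1 at -0.34, and Dkk3 minus Dkk1 was lowest in replicate 1 at 0.74, the library lowest for the mesenchyme markers. The part of those markers in these values was not tested.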

How the results depend on the processing

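The count of members above 1 FPKM stayed between 29 and 45 over all alternatives and at 37 or 38 with a library left out. The count below moved from 23 to 15 both against a level of 0.5 FPKM and with a mean of at least 0.1 FPKM required, where fewer genes are tested. It was 19 under rescaling to a sum of 1000000 FPKM, 30 against 2 FPKM, and 21 or 22 with a library left out. Against 0.5 FPKM the log2 difference changed sign for Wnt3 (0.25), Fzd8 (0.16), Fzd10 (0.14), Dvl1 (0.11) and Lrp5 (0.09). Against 2 FPKM it did so for Rspo1 (-0.57), Fzd4 (-0.53), Rnf43 (-0.49), Wnt4 (-0.47), Lgr5 (-0.46), Wnt7b (-0.37), Dvl2 (-0.33), Wnt7a (-0.23), Fzd5 (-0.16), Fzd6 (-0.16), Ror2 (-0.12) and Fzd1 (-0.08), as the level itself moved. With 1 library left out the sign was open for Fzd4 (-0.01 to 0.10), Rspo1 (-0.03 to 0.06), Lgr5 (-0.02 to 0.20), Rnf43 (-0.04 to 0.21), Wnt7b minus Wnt7a (-0.33 to 0.08) and Fzd2 minus Fzd7 (-0.06 to 0.16). Without its highest genes the contrast of Znrf3 and Rnf43 with the R-spondins turned to -1.63. Rescaling to a sum of 1000000 FPKM raised the median of all genes by 0.21 on the log2 scale. The mean of at least 0.1 FPKM cut the genes called below 1 FPKM from 8167 to 3495 of all genes tested. Pseudocounts, median-ratio scaling and variance settings changed 1 member's call, that of Wnt3 at a pseudocount of 0.1 (-0.31). No comparison of groups was possible because there is 1 group, and the pair and pool tests set genes against each other within each library. For the lowest members, values near 0.0196 to 0.0269 FPKM stand for 1 read in a transcript of 2000 bases.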

Other observations

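Markers of the dorsal midline, the roof plate and cortical hem from which Wnt and Bmp signals spread, were partly expressed. Of 8 genes on that list, which includes the members Rspo3 and Wnt3a, 4 lay above 1 FPKM, 3 below, and Gdf7, a roof plate ligand, was listed at 0 in all 5 libraries. Bmp4 stood at 4.64 ± 0.430 FPKM and the homeobox factors Lmx1a and Msx1 at 3.46 ± 0.247 and 3.56 ± 1.22. Ttr, a marker of choroid plexus, lay below the level, with 0.344 FPKM in replicate 1 and at most 0.0750 in the others. Blood vessel markers lay on both sides of 1 FPKM, and no blood or microglia marker was called above it. Of all genes tested, 52.3% were called above and 41.4% below. The 8 endothelial genes split into 2 above 1 FPKM, 3 below it and 3 called neither way. Emcn was lowest in replicate 1 at 0.540 FPKM and highest in replicate 4 at 4.77, and Esam, Tek and Cdh5 had the same lowest and highest libraries. Pecam1, Tie1, Cldn5 and Kdr did not, and Pecam1 was lowest in replicate 3 at 2.70 FPKM and highest in replicate 5 at 3.76. Of 8 blood and microglia genes none was called above 1 FPKM by limma (at an unadjusted p under 0.05 also 0), 5 were called below it, 2 neither way, and Aif1 was listed at 0.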
